A study of Mus musculus with 20 samples.

Results

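The 10 genes described here encode claudins found along the nephron: Cldn1, Cldn2, Cldn3, Cldn4, Cldn7, Cldn8, Cldn10, Cldn14, Cldn16 and Cldn19. They were taken by symbol from a table of 55822 genes measured by bulk sequencing of poly(A) RNA from whole mouse kidney, and all 10 were present. The mice were 8-week-old males of the inbred strain C57BL/6J. The control group received phosphate-buffered saline (PBS) for 6 days, and the puberulic acid group received 1 mg per day of puberulic acid, a tropolone made by some Penicillium moulds, over the same 6 days. Kidneys were taken on day 7, and each group has 5 samples. No gene was altered in either group, and the labels are not uniform on the route, naming oral, gavage and intraperitoneal dosing. A further pair of groups received a normal or a toxic lot of the supplement Choleste-Help. The names of 10 further columns contain the number 1000, which is the daily dose in mg of both lots, and do not show which lot is which, so those columns were not analysed here. The labels number the samples and do not tie each to its own animal, so the p-values measure the spread between these samples, which may be partly technical.

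Claudins are membrane-spanning proteins that form the strands of tight junctions between epithelial cells. Some seal the space between cells, and others form pores that let selected ions or water through, so the set of claudins in a segment of the nephron sets what passes between its cells. In the proximal tubule, claudin-2 forms a pore for cations and water and an isoform of claudin-10 a pore for anions. In the thick ascending limb, claudin-16 and claudin-19 act together in calcium and magnesium uptake, another claudin-10 isoform carries sodium, and claudin-14 reduces the passage of calcium. Claudin-3, claudin-4, claudin-7 and claudin-8 are found in the distal nephron and collecting duct, where claudin-4 and claudin-8 together form a pathway for chloride. Claudin-1 is found in the parietal cells of Bowman's capsule.

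Of the 10 claudins, 5 rose with puberulic acid (Cldn1, Cldn3, Cldn4, Cldn7 and Cldn14), 3 fell (Cldn2, Cldn8 and Cldn10), and Cldn16 and Cldn19 did not pass the test. Calls are from the quasi-likelihood F test of edgeR, with p-values adjusted by Benjamini and Hochberg's method over all 16266 genes tested, at an adjusted p under 0.05. The background was large, since 65.3% of all genes tested were called, 34.2% higher and 31.1% lower, so 8 called of 10 is not far from the share among all genes. Cldn14 passed the filter on low counts, about 0.486 CPM in 5 samples, through the puberulic acid group alone, so that it had to differ. Of the other 9 members 7 were called, 4 higher and 3 lower. The 2 groups were fully apart for 7 of the 10 claudins (5 higher, 2 lower). Of the 5 higher, Cldn14 was bound to be apart, given how it passed the filter. Ranges that did not overlap were found for 50.1% of all genes tested. The median log2 fold change of the 10, Cldn14 included, was 0.57, beside 0.05 over all genes tested. Of the other 9 members the middle value was that of Cldn16, -0.11. The summed level of the 10 ran from 656 to 875 CPM (counts per unit of library size, after scaling by TMM factors) in controls and from 633 to 734 CPM with puberulic acid, so the sums overlapped while single members moved in opposite directions.

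**Figure D1:**
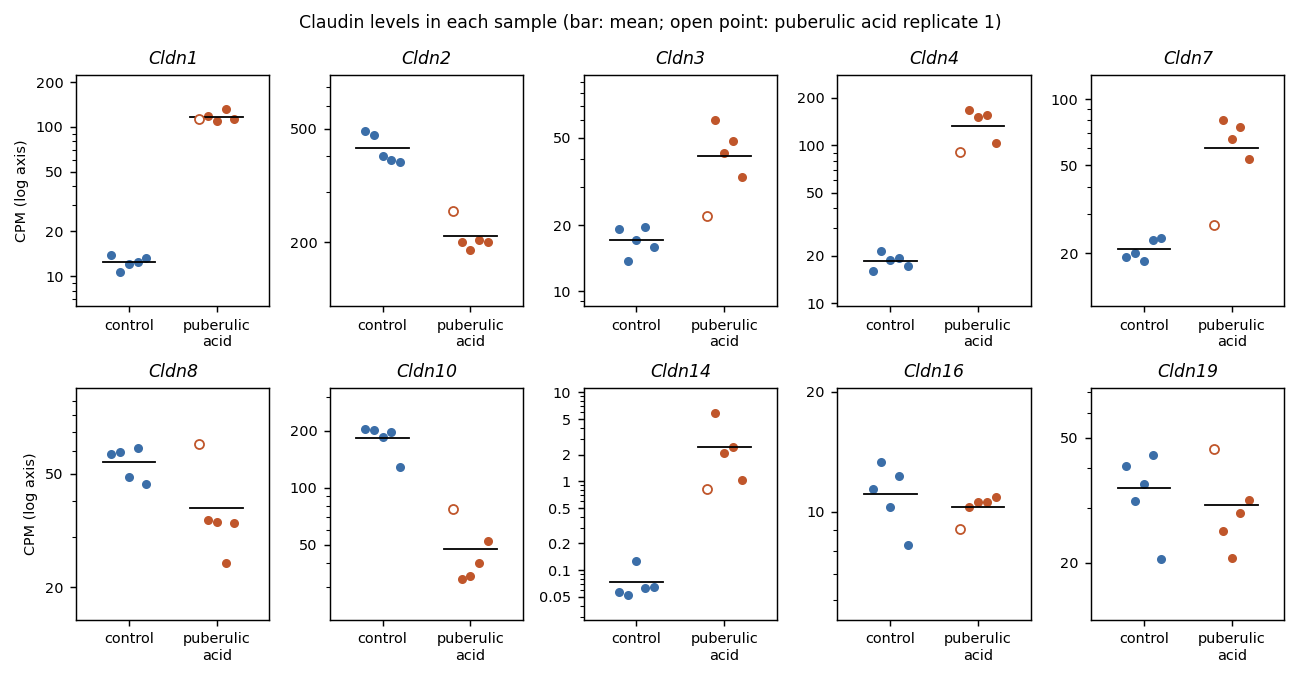
Level of each of the 10 claudins in CPM on a log axis, with 1 point for each control sample (blue) and each puberulic acid sample (orange), and a bar at the group mean. The groups are apart for 7 genes and overlap for Cldn8, Cldn16 and Cldn19, and puberulic acid replicate 1 (open point) lies closest to the controls for Cldn3, Cldn4, Cldn7, Cldn2 and Cldn10.

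Total counts ran from 18409940 to 22725111 in controls and from 19897614 to 24705953 with puberulic acid. Puberulic acid replicate 1 stood apart from the rest of its group: on the first principal component, with 81.3% of the variance, it lay at 36.3, the others at 71.0 to 81.5 and the controls at -72.8 to -61.1. Scaling to total counts in place of trimmed mean of M-values (TMM) factors moved the median log2 fold change of all genes from 0.05 to 0.56, and fold changes here are relative to the TMM scaling. In whole tissue, fewer cells of a type and less RNA per cell cannot be told apart.

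Stretches upstream of 5 members are shown, those that lie as neighbours and Cldn2 as a member that fell. Cldn3 and Cldn4 lie next to each other on chromosome 5, and both rose. Cldn1 and Cldn16 lie next to each other on chromosome 16, where Cldn1 rose and Cldn16 did not pass the test. Cldn2, on chromosome X, is a proximal tubule claudin that fell. RefSeq windows (GRCm38.p6, a different build from the GRCm39 named in the submitters' processing notes) were matched for 9 of the 10 members, all but Cldn8. Each sequence below is the 250 bases before the annotated start, 5′ to 3′ along the gene's strand. Capitals mark matches to any of 5 short motifs searched on both strands: AP-1 (TGANTCA), HNF1 (GTTAATNAT), HNF4 (CAAAGTCCA), the GC box (GGGCGG) and the TATA box (TATAAA).
Cldn4 (chr5:134946935-134947184, minus strand): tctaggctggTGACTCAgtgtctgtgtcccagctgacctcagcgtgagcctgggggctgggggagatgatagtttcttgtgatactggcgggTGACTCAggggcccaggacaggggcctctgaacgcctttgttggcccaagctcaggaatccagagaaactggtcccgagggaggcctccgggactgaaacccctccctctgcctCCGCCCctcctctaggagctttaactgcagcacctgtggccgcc
Cldn3 (chr5:134985964-134986213, plus strand): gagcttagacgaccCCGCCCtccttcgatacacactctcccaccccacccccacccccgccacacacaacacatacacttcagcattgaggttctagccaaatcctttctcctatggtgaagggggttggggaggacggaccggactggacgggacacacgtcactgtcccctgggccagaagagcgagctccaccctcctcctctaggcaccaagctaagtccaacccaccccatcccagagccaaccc
Cldn1 (chr16:26371840-26372089, minus strand): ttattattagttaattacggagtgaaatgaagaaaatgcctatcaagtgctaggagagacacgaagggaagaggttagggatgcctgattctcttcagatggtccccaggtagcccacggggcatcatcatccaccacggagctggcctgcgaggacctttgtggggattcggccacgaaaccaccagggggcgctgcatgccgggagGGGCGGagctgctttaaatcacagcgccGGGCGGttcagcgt
Cldn16 (chr16:26462885-26463134, plus strand): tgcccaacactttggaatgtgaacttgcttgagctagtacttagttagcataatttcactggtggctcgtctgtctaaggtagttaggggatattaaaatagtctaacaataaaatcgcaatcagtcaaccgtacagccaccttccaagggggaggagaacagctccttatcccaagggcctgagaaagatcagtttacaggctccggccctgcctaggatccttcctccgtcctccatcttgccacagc
Cldn2 (chrX:139800558-139800807, plus strand): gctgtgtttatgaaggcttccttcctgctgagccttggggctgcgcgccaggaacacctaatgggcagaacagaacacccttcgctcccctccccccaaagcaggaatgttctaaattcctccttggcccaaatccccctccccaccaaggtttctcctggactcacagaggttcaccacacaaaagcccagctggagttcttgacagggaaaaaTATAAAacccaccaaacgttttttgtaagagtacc

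The Cldn4 window holds 2 matches to the AP-1 letters and 1 to the GC box, and the window of its neighbour Cldn3 holds 1 GC box match and none to AP-1. The Cldn1 window holds 2 GC box matches, the Cldn2 window 1 TATA box match, and the Cldn16 window none of the 5 motifs. Among 32851 windows of the same length, 6.75% hold the AP-1 letters, 32.7% the GC box, 12.4% the TATA box, 0.737% the HNF1 letters and 0.384% the HNF4 letters. No 2 of the marked matches overlap. A match of letters describes the window and is not evidence of binding.

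Cldn2 and Cldn10 fell. Cldn2 (ENSMUSG00000047230), the cation and water pore, had the highest level per length of the 10 in controls. Its levels in control replicates 1 to 5 were 491, 475, 400, 388 and 383 CPM. With puberulic acid the 5 samples had 258, 200, 188, 204 and 200 CPM, in the same order. Every puberulic acid sample was below every control, and replicate 1 was the highest of its group. The mean went from 427 ± 51.7 to 210 ± 27.4 CPM (n = 5 and 5, SD), 2.04-fold lower. On the log2 scale the change was -1.03 ± 0.11 (SE, edgeR adjusted p = 8.15e-06). With total-count scaling the log2 fold change of Cldn2 was -0.52 (adjusted p = 0.000977).

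Cldn10 (ENSMUSG00000022132) fell more than any other member. The control samples had 205, 202, 185, 197 and 129 CPM, and the puberulic acid samples 77.5, 33.1, 34.4, 40.2 and 52.4 CPM. The groups did not overlap, with replicate 5 the lowest of the controls and replicate 1 the highest of the puberulic acid samples. The mean went from 183 ± 31.5 to 47.5 ± 18.4 CPM (n = 5 and 5, SD), 3.86-fold lower. The fitted log2 change was -1.95 ± 0.23 (SE, edgeR adjusted p = 1.63e-05). The table gives 1 value per gene, so the proximal and thick limb isoforms of Cldn10 were summed, and the fall cannot be assigned to either.

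Markers of the proximal tubule moved in the same direction. All 12 of the 12 listed markers were called lower, among them the organic anion transporter gene Slc22a8, with a log2 fold change of -6.76. Their summed level ran from 11400 to 15100 CPM in controls and from 888 to 2330 CPM with puberulic acid, and without replicate 1 from 888 to 1090 CPM. The median log2 fold change of these markers was -3.21, beside -1.03 for Cldn2 and -1.95 for Cldn10, and single markers ran from -6.76 to -1.21. Set against the mean log2 level of the 12 markers in the same sample, Cldn2 lay at -0.83 to -0.18 in controls and at 1.00 to 2.33 with puberulic acid, a difference of means of 2.48. Cldn10 on the same measure lay at -2.40 to -1.44 in controls and at -0.73 to 0.00 with puberulic acid, a difference of 1.51. Within a sample, then, both claudins stood higher relative to the mean of these markers in every puberulic acid sample than in any control. For Cldn10 this did not hold against each single marker, since its change of -1.95 was a larger fall than the smallest marker change, -1.21. The part that loss of proximal tubule RNA has in the fall of Cldn2 and Cldn10 was not tested.

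**Figure D2:**
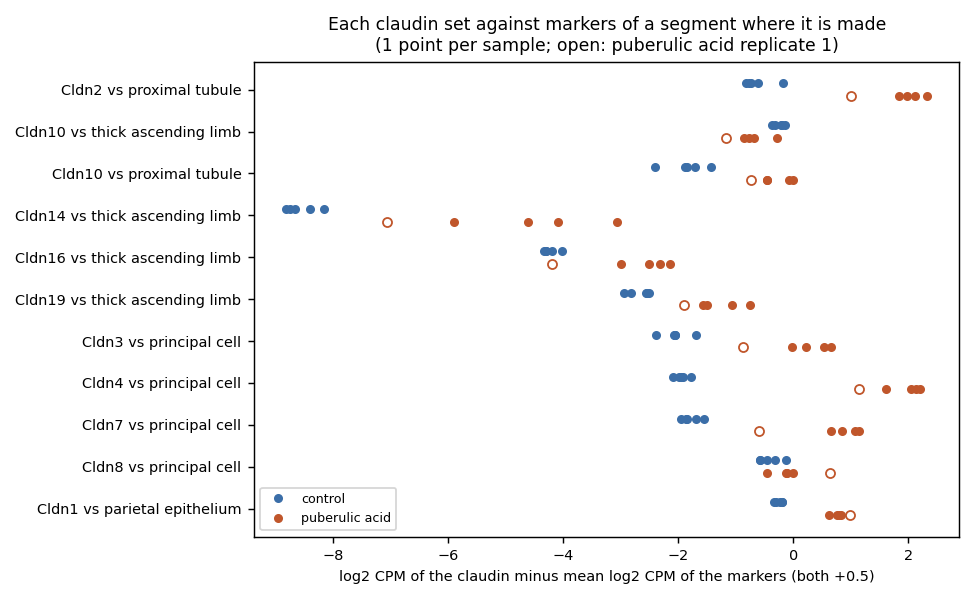
For each claudin, its log2 CPM minus the mean log2 CPM of the marker genes of a segment where it is made, with 1 point per sample (blue control, orange puberulic acid, open point replicate 1). The groups are apart in every row but Cldn10, Cldn16 and Cldn8, the first of these against thick limb markers, and Cldn2 moves from -0.83 to -0.18 in controls to 1.00 to 2.33.

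Among the claudins known from the thick ascending limb, neither Cldn16 nor Cldn19 passed the test, and Cldn14 rose in whole kidney, where the cells that hold its RNA were not resolved. Cldn16 (ENSMUSG00000038148) had 11.4, 13.3, 10.3, 12.3 and 8.25 CPM in the controls. With puberulic acid it had 9.06, 10.3, 10.6, 10.6 and 10.9 CPM, all within the control range. The log2 fold change was -0.11 ± 0.14 (SE, edgeR adjusted p = 0.483), with a 95% interval from -0.41 to 0.19. With total-count scaling its direction turned, to 0.40 (adjusted p = 0.0246), below the 0.56 of the median gene on that scale.

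Cldn19 (ENSMUSG00000066058), the partner of claudin-16, had 40.7, 31.4, 35.7, 44.2 and 20.6 CPM in the controls and 46.2, 25.2, 20.7, 28.8 and 31.6 CPM with puberulic acid. The groups overlapped over most of their ranges, and puberulic acid replicate 1 was the highest sample of all. On the log2 scale the change was -0.18 ± 0.23 (SE, edgeR adjusted p = 0.516), with a 95% interval from -0.68 to 0.33, so a fall of 1 log2 unit lies outside that interval. The direction turned with total-count scaling, to 0.33 (adjusted p = 0.215).

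Cldn14 (ENSMUSG00000047109), which encodes the claudin that reduces calcium passage, was near the limit of detection in controls, with 1, 1, 2, 1 and 1 counts. With puberulic acid the counts were 22, 139, 49, 59 and 32, or 0.817, 5.92, 2.08, 2.40 and 1.03 CPM. No puberulic acid sample overlapped the controls, but the group spread over a wide range, with replicate 2 highest and replicate 1 lowest. Against a floor of 3 counts per control library, the mean of 2.45 ± 2.05 CPM (SD, n = 5) was at least 13.6-fold higher. Without replicate 2 the mean was 1.58 CPM, at least 8.76-fold above that floor. The fitted log2 fold change was 4.97 ± 0.69 (SE, edgeR adjusted p = 5.59e-05), a value that depends on the fit's prior since the controls had so few counts. As 0 of 5 controls reached the filter's level, the test was favoured beforehand and is no independent support; with no filter the adjusted p was 1.06e-05. Without puberulic acid replicate 2 the fitted value was 4.33 (adjusted p = 2.5e-05).

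Of the 8 thick ascending limb markers, 6 were called lower and none higher, with a median log2 fold change of -1.08 and the largest change in Egf, the epidermal growth factor gene, at -3.45. Their summed level ran from 4170 to 6980 CPM in controls and from 3190 to 6250 CPM with puberulic acid, and without replicate 1 from 3190 to 4080 CPM. With total-count scaling 2 of the 8 were called lower and 1, Umod, was called higher, at 0.57. Against the mean of these markers in the same sample, Cldn19 lay at -2.94 to -2.51 in controls and at -1.91 to -0.75 with puberulic acid. Cldn16 lay at -4.33 to -4.02 in controls and at -4.20 to -2.15 with puberulic acid, where only replicate 1 fell in the control range. Cldn10 lay lower on this measure, with a control range of -0.37 to -0.15 and a puberulic acid range of -1.17 to -0.28, which overlap. The part of thick limb RNA in these values was not tested.

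Tmem207, another of the thick limb markers, follows Cldn1 and Cldn16 in gene order on chromosome 16. Its level ran from 5.58 to 25.3 CPM in controls and from 0.652 to 13.4 CPM with puberulic acid, with a log2 fold change of -1.88 ± 0.75 (SE, edgeR adjusted p = 0.0440). The ranges overlap through replicate 1 alone, as the other 4 puberulic acid samples ran from 0.652 to 5.43 CPM, and without it the log2 fold change was -2.97 (adjusted p = 0.00151). Leaving out any 1 of 8 other samples, all but control replicate 5, ended the call, and so did total-count scaling, the robust fit and DESeq2. It was picked out after its position was seen, so the stretch Cldn1, Cldn16, Tmem207 holds log2 fold changes of 3.23, -0.11 and -1.88 as a description only.

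The claudins of the distal nephron and collecting duct split. Cldn4 (ENSMUSG00000047501), which joins claudin-8 in the chloride pathway, had 16.1, 21.3, 18.9, 19.3 and 17.1 CPM in the controls. With puberulic acid it had 90.9, 167, 151, 156 and 104 CPM. The lowest puberulic acid sample, replicate 1, was still several times the highest control. The mean went from 18.5 ± 2.01 to 134 ± 34.0 CPM (n = 5 and 5, SD), 7.21-fold higher. The fitted log2 change was 2.85 ± 0.18 (SE, edgeR adjusted p = 1.05e-07).

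Cldn3 (ENSMUSG00000070473), a sealing claudin related to claudin-4, had 19.3, 13.8, 17.2, 19.7 and 16.0 CPM in the controls and 22.1, 60.1, 42.6, 48.3 and 33.1 CPM with puberulic acid. Replicate 1 was only just above the highest control, and the other 4 were clear of it. The mean rose 2.40-fold, with a log2 fold change of 1.26 ± 0.23 (SE, edgeR adjusted p = 0.000404), or 1.40 without replicate 1.

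Cldn7 (ENSMUSG00000018569), which is found along the lateral membrane as well as at the junction, had 19.2, 20, 18.5, 23.0 and 23.3 CPM in the controls and 26.8, 80.1, 66.2, 74.5 and 53.5 CPM with puberulic acid. The order of the puberulic acid samples was the same as for Cldn3, with replicate 2 highest and replicate 1 lowest and close to the controls. The mean rose 2.89-fold, with a log2 fold change of 1.53 ± 0.24 (SE, edgeR adjusted p = 0.000138), or 1.70 without replicate 1.

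Cldn8 (ENSMUSG00000050520) was the weakest of the calls. Its control levels were 58.7, 59.3, 48.7, 61.4 and 46.0 CPM, and its puberulic acid levels 63.5, 34.5, 33.8, 24.2 and 33.6 CPM. Replicate 1 was above every control and the other 4 below every control. The log2 fold change was -0.53 ± 0.21 (SE, edgeR adjusted p = 0.0454), and -0.82 without replicate 1 (adjusted p = 0.000129). Leaving out any 1 of 8 other samples, all but control replicate 5, ended the call, and total-count scaling gave -0.02 (adjusted p = 0.927).

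Markers of the principal cells of the collecting duct fell, 6 of 7 being called lower, with a median log2 fold change of -0.98 and the largest change in the water channel gene Aqp3 at -1.90. Their summed level went from 601 to 892 CPM in controls to 319 to 377 CPM with puberulic acid. Against the mean of these markers in the same sample, Cldn4 lay at -2.10 to -1.78 in controls and at 1.15 to 2.21 with puberulic acid, Cldn7 moved from -1.95 to -1.55 to -0.60 to 1.15, and Cldn3 from -2.39 to -1.70 to -0.87 to 0.66. Cldn8 lay at -0.58 to -0.12 in controls and at -0.45 to 0.63 with puberulic acid, so that it overlapped. The part of principal cell RNA in these values was not tested.

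Other epithelia that can make Cldn4 and Cldn7 were checked by their markers. Of 7 urothelial markers, 6 were tested and 1, the basal keratin gene Krt5, was called higher, with a fitted log2 fold change of 6.07. Krt5 had 2 to 8 counts in the controls and passed the filter through the puberulic acid group alone, so its fold rests on few control counts. The summed level of the 7 ran from 3.44 to 10.8 CPM in controls and from 20.6 to 58.8 CPM with puberulic acid. Without Krt5 the sum of the other 6 ran from 3.25 to 10.3 CPM in controls. With puberulic acid that sum was 7.01, 3.92, 34.1, 2.00 and 4.92 CPM, so that all but replicates 3 and 4 lay within the control range. The uroplakin genes Upk1a, Upk1b, Upk2 and Upk3a, which define the urothelium, were not called, though puberulic acid replicate 3 was the highest of all 10 samples for each, at 10.3, 11.2, 4.02 and 6.35 CPM. No urothelial marker was at or under 3 counts in all 10 samples. Of the 10 markers of injured tubules, 9 were called higher, led by Havcr1 at 9.26, and their summed level went from 1000 to 1380 CPM to 13800 to 22200 CPM. Replicate 1 had the lowest of the latter values, as it had for Cldn3, Cldn4 and Cldn7. The part of urothelial or injured tubule cells in the rise of these claudins was not tested.

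Cldn1 (ENSMUSG00000022512), the claudin of the parietal epithelium, rose by a like amount in all 5 samples. It had 13.9, 10.7, 12.1, 12.5 and 13.3 CPM in the controls and 113, 118, 109, 132 and 113 CPM with puberulic acid. Replicate 1 did not stand apart for this gene. The mean went from 12.5 ± 1.24 to 117 ± 9.19 CPM (n = 5 and 5, SD), 9.38-fold higher. On the log2 scale the change was 3.23 ± 0.10 (SE, edgeR adjusted p = 7.52e-10). Of 5 further genes of the parietal epithelium, which tubule and other cells also express, 4 were called higher, with the largest change in the adhesion receptor gene Cd44 at 5.41. Their summed level went from 125 to 139 CPM in controls to 384 to 563 CPM with puberulic acid. Against their mean, Cldn1 lay at -0.34 to -0.20 in controls and at 0.62 to 0.99 with puberulic acid. Podocyte markers, from the same corpuscle, had 1 of 6 called lower, Nphs1 at -1.01, and none higher. How far parietal cells account for Cldn1 was not tested.

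**Figure D3:**
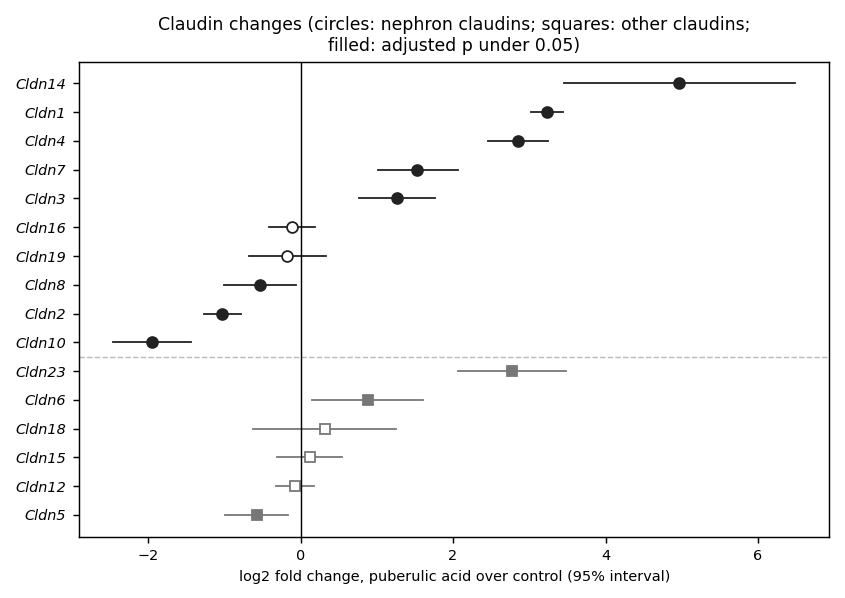
Log2 fold change of puberulic acid over control with its 95% interval for the 10 nephron claudins (circles) and the 6 other claudins that were tested (squares). Filled symbols passed an adjusted p of 0.05, from Cldn10 at -1.95 to Cldn14 at 4.97, and the intervals of Cldn16 and Cldn19 span 0.

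Ratios of claudins within a sample do not depend on how libraries are scaled, apart from a small added constant of 0.5 CPM. The log2 ratio of Cldn16 to Cldn19, the pair of the thick limb, was -1.79, -1.21, -1.74, -1.81 and -1.27 in the controls and -2.29, -1.25, -0.94, -1.40 and -1.50 with puberulic acid. The groups overlapped, with means of -1.56 ± 0.30 and -1.48 ± 0.50 (n = 5 and 5, SD) and p = 0.722 in a two-sided exact permutation test.

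The log2 ratio of Cldn4 to Cldn8, the pair of the collecting duct, was negative in every control and positive in every puberulic acid sample. It was -1.83, -1.46, -1.34, -1.65 and -1.40 in the controls and 0.51, 2.26, 2.15, 2.66 and 1.61 with puberulic acid. The means were -1.54 ± 0.20 and 1.84 ± 0.83 (n = 5 and 5, SD), a difference of 3.37 (p = 0.00794 by two-sided exact permutation, which is the lowest p possible with 5 against 5, and 0.0119 adjusted over the 3 ratios).

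The log2 ratio of Cldn3 to Cldn4, neighbours in the genome that both rose, was 0.25, -0.61, -0.13, 0.03 and -0.09 in the controls and -2.02, -1.46, -1.82, -1.68 and -1.63 with puberulic acid. Every puberulic acid sample, replicate 1 included, was below every control. The difference of means was -1.61 (p = 0.00794 by two-sided exact permutation, and 0.0119 adjusted over the 3 ratios), so Cldn4 rose more than Cldn3.

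**Figure D4:**
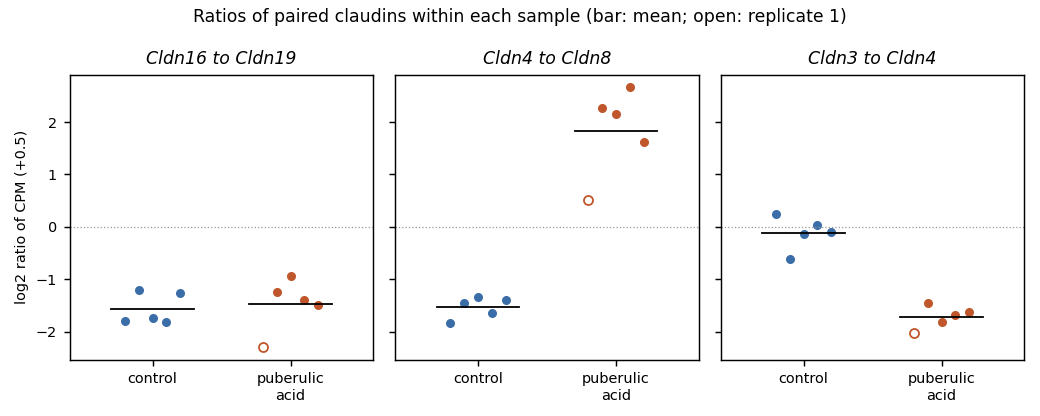
Log2 ratio of 2 claudins within each sample for the 3 pairs tested, controls in blue and puberulic acid in orange, with a bar at the mean and replicate 1 open. The Cldn16 to Cldn19 ratio overlaps, while Cldn4 to Cldn8 goes from -1.54 to 1.84 on average and Cldn3 to Cldn4 falls in all 5 samples.

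Levels of different claudins were set side by side as CPM per kilobase of the longest protein-coding transcript. In controls the order from the highest was Cldn2 at 140 ± 17.0, Cldn10 at 86.2 ± 14.8, Cldn8 at 23.3 ± 2.94, Cldn7 at 15.6 ± 1.65, Cldn3 at 13.7 ± 1.92, Cldn4 at 10.2 ± 1.11, Cldn16 at 9.48 ± 1.67, Cldn19 at 8.28 ± 2.20, Cldn1 at 3.85 ± 0.381 and Cldn14 at 0.05 ± 0.0211 CPM per kilobase (SD, n = 5). The ranges of Cldn7 and Cldn3, of Cldn3 and Cldn4, of Cldn4 and Cldn16 and of Cldn16 and Cldn19 overlapped, and the other neighbours in this order did not. With puberulic acid, Cldn4 at 73.6 ± 18.7 and Cldn2 at 69.0 ± 9.01 CPM per kilobase led with overlapping ranges. Cldn7 at 45.1 ± 15.9, Cldn1 at 36.1 ± 2.83 and Cldn3 at 32.8 ± 11.5 followed, then Cldn10 at 22.3 ± 8.65, Cldn8 at 16.1 ± 6.33, Cldn16 at 8.77 ± 0.607, Cldn19 at 7.32 ± 2.32 and Cldn14 at 1.68 ± 1.41. Cldn2, from 61.6, lay above Cldn7, up to 60.0. Cldn8, from 10.3, lay above Cldn16, up to 9.26, and Cldn19, from 4.97, above Cldn14, up to 4.06. The other neighbours in this order overlapped. With the summed length of all exons in place of the longest transcript, Cldn3 at 13.7 stood above Cldn7 at 10.7 in controls, and with puberulic acid Cldn3 at 32.8 stood above Cldn7 at 30.9 and Cldn1 at 24.2.

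Likeness of profile over the 10 samples was measured by Pearson correlation on log2(CPM + 1), among 14808 genes. Cldn14 had the largest fitted rise of the members, a value that rests on 1 to 2 counts in each control. The genes most like Cldn14 were Gtpbp6, Cxcl17 and Cdh24, at 0.974, 0.969 and 0.969. For Cldn10, the member with the largest fall, they were Pter, Ido2 and Mep1b, at 0.997, 0.996 and 0.995. Mep1b, a brush border protease gene of the proximal tubule, ran from 179 to 296 CPM in controls and from 20.4 to 70.6 CPM with puberulic acid. These correlations rest mostly on the difference between the groups and are a description.

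Outside the nephron set, 13 of 14 further claudins were in the table and 6 passed the filter on low counts. Cldn23 rose from 0.189 to 1.34 CPM, with a log2 fold change of 2.77 ± 0.32 (SE, edgeR adjusted p = 1.31e-05). It passed the filter through the puberulic acid group alone, and with no filter its adjusted p was 2.91e-05. Cldn6 rose by 0.88 (adjusted p = 0.0345), from levels near 1 CPM, and lost the call on leaving out any 1 of 7 samples (control replicates 1 to 4 and puberulic acid replicates 2 to 4) and with no filter (adjusted p = 0.0529). Cldn5, the claudin of endothelium, fell by 0.57 (adjusted p = 0.0187), beside 1 of 6 endothelial markers called lower, Kdr at -0.83. Cldn12, Cldn15 and Cldn18 had log2 fold changes of -0.08, 0.12 and 0.32 and did not pass the test, and the interval of Cldn12 ran from -0.33 to 0.17. With total-count scaling 4 of the 6 were called higher and 0 lower, Cldn12 among the former at 0.43, below the 0.56 of the median gene on that scale. The 7 that were not tested included Cldn13 and Cldn20, which had at most 3 counts in every sample.

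Of 13 other membrane proteins of the junction, 4 rose, 3 fell and 6 did not pass the test, with a median log2 fold change of -0.14. Among all genes tested 34.2% were called higher and 31.1% lower. Cxadr, an adhesion protein that is also the coxsackievirus and adenovirus receptor, rose from 28.8 ± 2.04 to 77.3 ± 6.12 CPM (n = 5 and 5, SD). The fitted log2 change was 1.42 ± 0.08 (SE, edgeR adjusted p = 6.97e-08). Jam2, a junctional adhesion molecule, rose by 0.90, and Lsr, which marks junctions where 3 cells meet, by 0.75. Jam3, Esam and Crb3 fell by 0.64, 0.58 and 0.22, and Crb3 turned to 0.28 with total-count scaling. These 3 calls were lost on leaving out 1 sample: Jam3 without control replicate 5, Crb3 without control replicate 4, and Esam without control replicate 4 or puberulic acid replicate 3. With total-count scaling, where the median gene lay at 0.56, 9 of the 13 were called higher and 0 lower.

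Of 16 scaffold and polarity genes under the junction, 4 rose, 3 fell and 9 did not pass the test, with a median log2 fold change of 0.05. Calls were made for 65.3% of all genes tested. The scaffold gene Tjp1 rose by 0.61, and cingulin, Cgn, by 0.79. Prkcz, an atypical protein kinase C of the polarity complex, fell by 1.83, Patj by 0.81 and Cgnl1 by 0.56. The call of Cgnl1 was lost on leaving out any 1 of 6 samples, control replicates 2 and 3 and puberulic acid replicates 2 to 5. With total-count scaling, where the median gene lay at 0.56, 12 of the 16 were called in place of 7, 10 of them higher.

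Among 11 genes known as partners or regulators of claudins, 2 rose and 6 fell, with a median log2 fold change of -0.57. The shares over all genes tested were 34.2% higher and 31.1% lower. St14, a membrane protease, rose by 0.80. Prss8, a protease of the same pathway, fell by 2.12. Klhl3, which directs the breakdown of WNK kinases, fell by 2.00, and Pth1r, the receptor for parathyroid hormone, by 1.61. The markers of the other cell types were also counted once: distal convoluted and connecting tubule had 1 of 6 called higher (Trpv5) and 3 lower, with Pvalb at -4.18, intercalated cells had 4 of 6 lower, with Slc26a4 at -1.35, and immune cells had 2 of 4 tested higher, with Cd68 at 3.83. The Trpv5 call, at 0.41 (adjusted p = 0.0470), was lost with RLE scaling, no filter, DESeq2, and on leaving out any 1 of 7 samples (control replicates 1, 3 and 4 and puberulic acid replicates 1, 2, 3 and 5).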

How the data were processed

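Per the labels, poly(A) RNA libraries were made from kidney with a directional kit, and the RNA integrity number exceeded 7.5. The authors deposited a table of estimated counts with decimals, 1 row per gene. The submitters' processing notes name fastp 0.22.0, FastQC 0.12.1, MultiQC 1.28, Salmon 1.10.3, DESeq2 and GRCm39, with no role or order; the annotation release is not given in the sources used here. The 10 control and puberulic acid columns were used, and 10 further columns, whose names contain the dose of both lots but do not show which lot is which, were not used. Symbols were found for 51344 of 55822 identifiers, with 99.29% of the counts; Pals1 was matched as Mpp5.

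Counts were rounded, filtered with filterByExpr, scaled by TMM and tested with glmQLFit and glmQLFTest of edgeR 4.0.16 (R 4.3.3) on 5 against 5 samples. Standard errors were derived from the log2 fold change and the F statistic. The fit was tested on simulated data in which few genes changed, as many up as down. That test does not bear on the scaling of data as widely changed as these. CPM uses TMM-corrected library sizes, and a floor of 3 counts covers counting error only. Total counts per sample were 18409940 to 24705953. Ratios were compared with exact permutation tests over 252 assignments (scipy 1.17.1). Lengths came from GENCODE M21.

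Named genes were all 10 members, other claudins with a mean of at least 1 CPM in a group, up to 3 called genes with the largest change each way in each junction and regulator list, and the called marker with the largest change in each marker list. Genes that this rule names but that are withheld are not reported here. The members and lists were chosen with earlier results of these data known. Alternatives were RLE, upper-quartile and total-count scaling, other filters, DESeq2 1.42.0, a robust fit, a replicate block, other pseudocounts for the ratios, and leaving out each sample.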

Additional observations from a re-analysis of the deposited data

Results flagged for a closer look

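Of 26 groups of 5 values (10 claudins and 3 ratios in 2 groups), 4 held an extreme sample that was separated from the next value by over 0.71 of the group's range, where chance flags about 1 group in 20. Puberulic acid replicate 1 had the highest Cldn2 of its group, at 258 CPM, with a gap of 0.761 of the range. The same sample had the highest Cldn8, at 63.5 CPM, with a gap of 0.739. Control replicate 5 had the lowest Cldn10 of the controls, at 129 CPM, with a gap of 0.739. It was also the lowest control for Cldn2, Cldn8, Cldn16 and Cldn19. Control replicate 3 had the highest Cldn14 of the controls, at 0.127 CPM, with a gap of 0.836, which is the step from 1 to 2 counts. The causes were not tested.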

How the results depend on the processing

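Of the 10 claudins, 7 to 8 were called under each alternative. The count was 7 with a filter of 1 CPM, under which Cldn14 was not tested. Of the values of single members under the alternatives, 168 of 179 kept their side of the threshold, though Cldn19, not called in either case, turned to 0.33 with total counts. The exceptions include Cldn8, which was -0.44 with upper-quartile scaling (adjusted p = 0.0777), -0.023 with total counts (adjusted p = 0.927), and -0.82 to -0.44 with 1 sample left out, where the 8 values that lost the call ran from -0.58 to -0.44. Cldn16 turned to 0.40 with total counts (adjusted p = 0.0246). Total counts also gave 4 other claudins higher and 0 lower, 9 junction membrane genes higher and 0 lower, 12 scaffold genes called with 10 higher, and 4 partners or regulators higher. Upper-quartile scaling left 1 junction membrane gene lower. With 1 sample left out, 1 to 4 junction membrane genes were called lower and 1 to 2 other claudins higher. Total counts turned Cldn12 to 0.43, Marveld3 to 0.37, Ildr1 to 0.35, Crb3 to 0.28, Pals1 to 0.35, Spint2 to 0.41, Scnn1b to 0.14 and Atp6v0d2 to 0.41. Upk1b ran from -1.46 without puberulic acid replicate 3 to 0.997 without replicate 2. The causes were not tested.

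The replicate numbers did not pair the samples: same-numbered samples correlated at -0.036 on average (-0.172 to 0.039), and 0 controls correlated best with their own number. With a replicate block 8 members were called, as without it, and 1 other claudin was called higher in place of 2, the lost call being that of Cldn6. Trpv5 also lost its call. The values of Cldn14 and Tmem207 without 1 sample and of the urothelial sum without Krt5 were chosen after seeing the data. The blocked ratio differences were 3.37 for Cldn4 to Cldn8 and -1.61 for Cldn3 to Cldn4 (exact sign-flip permutation, adjusted p = 0.0938 for each), a test that 5 pairs do not allow to reach 0.05. Depth limits Cldn14 in controls, at 1 to 2 counts.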
